A study of Mus musculus with 24 samples.

Results

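Oligodendrocytes make the myelin of the brain, and 36 names of genes that mark this lineage were followed in the brains of CAST/EiJ and WSB/EiJ mice. The names cover precursors, differentiating cells and myelinating cells, and were looked up by symbol among the 53465 genes of the count files. They stand for 35 genes, because Tmem10 is an older name of Opalin in RefSeq, and 34 of the 35 had enough reads to be tested. For the comparison of stages, 3 of the 35 genes were placed with precursors, 4 with the regulators of the lineage, 8 with differentiating cells and 20 with myelinating cells. The placement was made for this comparison from textbook knowledge of the genes.

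The series holds total RNA from the brains of 6 CAST/EiJ mice (CAST below) and 6 WSB/EiJ mice (WSB below), inbred strains derived from wild mice. The question behind the comparison, as far as the submitters state it, is which genes differ in expression between strains that develop infarcts of different size once a brain artery is occluded. The labels name no genetic modification, treatment, operation, age, sex or dissection for any of the 12 animals. The 12 animals were taken as separate mice because the labels number them separately, and p-values measure the spread between these 12 libraries only.

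Oligodendrocyte precursors divide under platelet-derived growth factor and carry the receptor encoded by Pdgfra. Olig1, Olig2 and Sox10 are transcription factors that set and hold the identity of the lineage, and Myrf, switched on as precursors leave the cycle, drives the genes of the myelin sheath. Mature cells then make large amounts of sheath proteins such as Mbp, of galactolipids, and of junction proteins that seal and couple the layers of membrane. White matter tracts are rich in these transcripts. In RNA of whole tissue, fewer cells of a type and less RNA per cell cannot be told apart.

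The 250 bases before the annotated start of 5 genes are printed to show the regulatory sequence of members described below, namely 4 members that passed the strain test and Mobp, a myelin gene whose window held the most copies of a motif searched. The sequences come from RefSeq for GRCm38.p6, run 5′ to 3′ on the strand of the gene, and carry in capitals every match, on either strand, to ACAAAG or ACAATG, cores bound by SOX proteins, and to CANNTG, the E-box bound by basic helix-loop-helix proteins such as OLIG2.
Cldn11, chr3:31149670-31149919, plus strand: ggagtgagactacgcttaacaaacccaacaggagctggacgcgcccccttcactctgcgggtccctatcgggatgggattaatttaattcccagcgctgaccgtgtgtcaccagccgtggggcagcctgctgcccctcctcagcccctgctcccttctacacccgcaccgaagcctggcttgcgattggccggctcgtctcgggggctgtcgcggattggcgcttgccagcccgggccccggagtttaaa
Pllp, chr8:94696243-94696492, minus strand: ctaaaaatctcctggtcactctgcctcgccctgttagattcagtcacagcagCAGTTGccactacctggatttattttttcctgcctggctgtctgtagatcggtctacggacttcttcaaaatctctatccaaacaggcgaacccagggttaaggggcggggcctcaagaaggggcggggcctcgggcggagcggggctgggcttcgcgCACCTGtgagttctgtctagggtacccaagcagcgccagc
Mobp, chr9:120149492-120149741, plus strand: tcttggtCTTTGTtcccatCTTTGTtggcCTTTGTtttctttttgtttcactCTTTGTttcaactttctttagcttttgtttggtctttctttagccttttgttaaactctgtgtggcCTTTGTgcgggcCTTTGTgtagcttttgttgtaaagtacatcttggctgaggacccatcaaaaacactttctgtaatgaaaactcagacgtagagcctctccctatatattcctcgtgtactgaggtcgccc
Vcan, chr13:89742513-89742762, minus strand: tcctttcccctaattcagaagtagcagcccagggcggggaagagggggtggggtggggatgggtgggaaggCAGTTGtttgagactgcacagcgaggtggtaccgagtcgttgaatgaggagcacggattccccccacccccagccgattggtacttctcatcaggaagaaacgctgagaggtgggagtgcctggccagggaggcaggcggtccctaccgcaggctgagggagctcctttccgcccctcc
Olig2, chr16:91225300-91225549, plus strand: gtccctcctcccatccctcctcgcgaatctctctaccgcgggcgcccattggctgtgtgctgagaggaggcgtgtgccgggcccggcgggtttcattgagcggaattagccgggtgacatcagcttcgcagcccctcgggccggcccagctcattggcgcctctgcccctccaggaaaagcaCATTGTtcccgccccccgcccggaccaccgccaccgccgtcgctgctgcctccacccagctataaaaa

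RefSeq holds 36 windows of this kind for 27 of the 35 genes, since some genes have several annotated starts. Its starts can differ from those of GENCODE, and the windows of Olig2, Pllp and Mobp run into the gene as GENCODE places it. The sequences are of the reference genome, not of CAST or WSB. The Mobp window held 6 matches to ACAAAG, seen there as CTTTGT, while the Cldn11 window held no match to any motif searched. ACAAAG was present in 11 of the 36 windows, which belong to 8 genes, against 16.5% of all 32851 promoter windows of this length. ACAATG was present in 5 of the 36 windows, against 10.7% of all windows. CANNTG was present in 25 of the 36 windows, against 66.2% of all windows, and CTGGCAC, a motif of the type bound by MYRF, in 4 of the 36 windows, against 4.19% of all windows. Windows of 1 gene can overlap, so these counts are not independent. A match is a description of the letters only, and the absence of one says nothing of the factor.

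Each animal had 32982569 to 46513232 reads in genes after its 2 sequencing lanes were summed, and levels are CPM (counts scaled to a fixed library total) after TMM scaling, with scaling factors of 0.955 to 1.03. Alignments counted as not unique made up 15.6% to 16.1% in CAST animals and 16.99% to 17.5% in WSB animals. The part of this share in the results below was not tested. Reads that did not align are listed at 0 in every animal. Whether reads of CAST and WSB are lost alike in alignment thus cannot be told, and it was not tested for any gene. Of 15 genes on the lists used here that lie wholly inside other genes, 15 are listed at 0 in all 12 animals, so reads from a stretch shared by 2 genes appear to be left out of both. This touched Trf, the iron carrier transferrin, of whose body 0.518% lies outside Gm20425: it had 1 to 7 reads in each animal and was not tested. It also touched Qdpr, of whose body 2.87% lies outside Gm42413, and Cnp, of whose body 47.0% lies outside Dnajc7. Overlapping genes on opposite strands cannot be told apart in these counts.

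Some libraries stood apart by genes of brain regions. CAST_142 had 344 CPM of Cbln3, a cerebellar granule cell gene, where the other CAST animals had 0.391 to 11.9 CPM, and 5.63 CPM of Drd1, a striatal dopamine receptor, where the other CAST animals had 38.7 to 82.2 CPM. WSB_100 had 169.4 CPM of Cdhr1, an olfactory bulb gene, where the other WSB animals had 13.2 to 34.4 CPM, and 26.5 CPM of Ttr, a choroid plexus gene, where the other WSB animals had 197 to 649 CPM. WSB_120 had 212 reads of Hoxb8, a gene of the hindbrain and spinal cord, where no other animal had more than 5 reads. Fits without these animals, alone or together, are given beside many of the results they change. All 7 members called with all 12 animals were also called, in the same direction, without CAST_142, WSB_100 and WSB_120 together.

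Of the 34 members tested, 4 were higher in CAST (Vcan, Olig1, Olig2 and Lims2) and 3 were lower (Myrf, Cldn11 and Pllp), by edgeR's quasi-likelihood test with a Benjamini-Hochberg adjusted p under 0.05. That is 20.6% of the members, against 42.7% of the 18425 genes tested, of which 21.5% were higher and 21.2% lower in CAST. The median size of the log2 fold change was 0.20 over the members and 0.22 over all genes tested. In 2 of the 34 members, Olig1 and Lims2, the CPM ranges of CAST and WSB were apart, as they were in 27.1% of all genes tested.

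**Figure D1:**
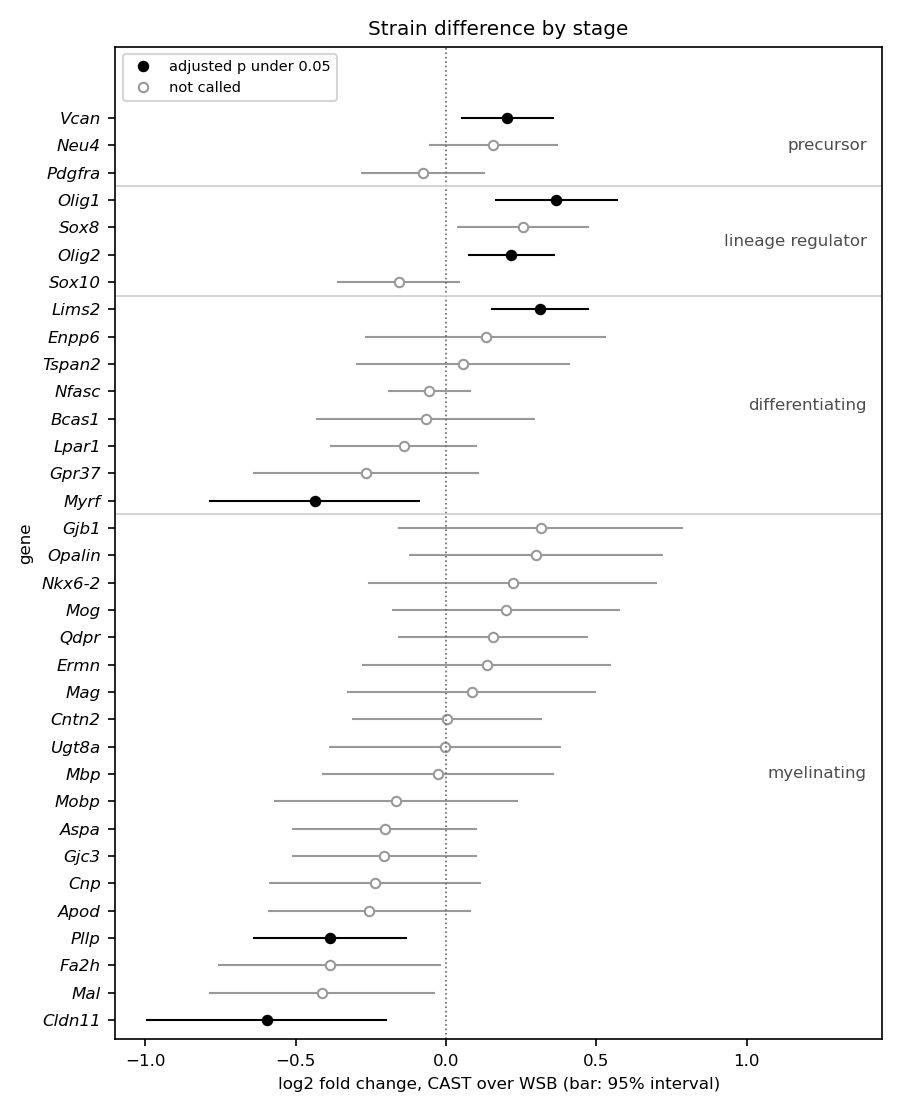
Log2 fold change of each tested member, CAST over WSB, on the horizontal axis, with its 95% interval as a bar; filled points passed the adjusted p of 0.05 and members are sorted within their stage. Called precursor and regulator genes lie to the right of 0, and both called myelinating genes, Pllp and Cldn11, to the left.

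The stages hold few genes each, and 42.7% of all genes tested were called. Among precursor genes 1 of 3 was higher in CAST, among regulators 2 of 4 were higher, among differentiating genes 1 of 8 was higher and 1 lower, and among myelinating genes 2 of 19 were lower. The median log2 fold change was 0.16 for precursor genes, 0.24 for regulators, -0.06 for differentiating genes and -0.03 for myelinating genes, against 0.005 over all genes tested. Without CAST_142, WSB_100 and WSB_120 it was 0.20 for precursor genes, 0.23 for regulators, -0.07 for differentiating genes and -0.14 for myelinating genes. In further genes of the lineage, described below, the order of these medians was not repeated. With all animals they were -0.08 for 14 other precursor genes and 0.005 for 25 other transcriptional regulators. For 16 other differentiating genes the median was 0.10, and for 35 other myelinating genes 0.02. No test was made of the difference between stages.

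In precursor genes the highest animal exceeded the lowest by a median of 1.34 times in CAST and 1.28 times in WSB. Over all genes tested these medians were 1.38 and 1.32 times. Vcan encodes versican, a chondroitin sulfate proteoglycan of the precursor surface and matrix, and lies on chr13:89655312-89742509. It had 33.4, 40.6 and 44.7 CPM as the lowest, median and highest value in CAST animals, against 32.1, 34.4 and 38.9 CPM in WSB animals. The ranges overlapped, since CAST_202 lay below the WSB median and WSB_100 lay among the CAST animals. The log2 fold change was 0.20 (SE 0.07, edgeR adjusted p = 0.03). The call was lost in 11 of 27 alternatives, 9 of which leave out 1 animal. Among these 9 were the fits without CAST_142 (0.17), without WSB_169 (0.18) and without WSB_120 (0.20).

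Pdgfra, the growth factor receptor of precursors, had 42.4, 55.9 and 64.1 CPM as the lowest, median and highest value in CAST animals, against 50.9, 60.1 and 65.4 CPM in WSB animals. Its log2 fold change was -0.08 (95% interval -0.28 to 0.13), and CAST_142 was the lowest of the 12 animals. Neu4, a sialidase of the early lineage, had 11.6, 13.0 and 15.5 CPM in CAST animals, against 9.97, 12.1 and 14.3 CPM in WSB animals. Its log2 fold change was 0.16 (95% interval -0.05 to 0.37), and the ranges overlapped.

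Among the regulators Olig1 and Olig2 were higher in CAST. Olig1, a basic helix-loop-helix factor on chr16:91269772-91271933, had 76.6, 80.7 and 94.0 CPM as the lowest, median and highest value in CAST animals, against 51.0, 66.9 and 73.5 CPM in WSB animals. Every CAST animal was above every WSB animal, and WSB_100 was the lowest. The log2 fold change was 0.37 (SE 0.09, edgeR adjusted p = 0.0058), and the call was lost in 1 of 27 alternatives, the test against a fold of 1.2.

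Olig2, the neighbouring factor that specifies the lineage, lies on chr16:91225457-91228677. It had 28.8, 30.7 and 33.8 CPM in CAST animals, against 22.3, 26.7 and 29.6 CPM in WSB animals. The ranges met only where WSB_120, the highest WSB animal, passed the lowest CAST animals. Its log2 fold change was 0.22 (SE 0.07, edgeR adjusted p = 0.017).

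Sox8 and Sox10 are related SOX factors that act together in oligodendrocytes, and neither passed the test. Sox8 had 51.0, 57.8 and 63.6 CPM in CAST animals, against 37.9, 48.3 and 60.1 CPM in WSB animals, with a log2 fold change of 0.26 (SE 0.10, edgeR adjusted p = 0.054). Sox10 had 35.3, 38.1 and 42.0 CPM in CAST animals, against 34.7, 43.4 and 51.2 CPM in WSB animals, with a log2 fold change of -0.16 (95% interval -0.36 to 0.04). Sox8 passed as higher in 7 of 27 alternatives, among them the fits without CAST_142 (0.28) and without WSB_135 (0.33). Sox10 passed as lower in 2 of 27 alternatives. These were the fit without CAST_142 and WSB_100 (-0.23) and the fit, described below, at matched Mbp (-0.16).

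Among differentiating genes Lims2 was higher and Myrf lower in CAST. Lims2, a LIM domain adaptor of integrin signalling, lies on chr18:31922290-31958619 with Gpr17, a receptor of committed precursors, inside it on the opposite strand. Lims2 had 9.49, 9.71 and 10.7 CPM in CAST animals, against 6.83, 7.83 and 8.999 CPM in WSB animals. Every CAST animal was above every WSB animal. This gave a log2 fold change of 0.31 (SE 0.07, edgeR adjusted p = 0.0038), while Gpr17 was listed at 0 in all 12 animals and its expression cannot be read from these counts.

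Myrf, the membrane-bound factor that switches on myelin genes, lies on chr19:10208272-10240748. It had 37.8, 45.3 and 59.3 CPM in CAST animals, against 41.2, 64.4 and 85.3 CPM in WSB animals. The ranges overlapped, because WSB_100 had less than the CAST median and CAST_142 was the highest CAST animal. The log2 fold change was -0.44 (SE 0.16, edgeR adjusted p = 0.043), with values of -0.61 to -0.24 over all 27 alternatives. The call was lost in 14 of the 27, among them the fit without WSB_120 (-0.34).

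The other differentiating genes did not pass the test. Enpp6, a choline phosphodiesterase of newly forming oligodendrocytes, had a log2 fold change of 0.13 (95% interval -0.26 to 0.53), and Tspan2, a tetraspanin, 0.05 (-0.30 to 0.41). Bcas1, which marks cells that begin to myelinate, had -0.07 (-0.43 to 0.29). Nfasc, whose glial and neuronal forms meet at the node, had -0.06 (-0.19 to 0.08). Lpar1, a lysophosphatidic acid receptor, had -0.14 (-0.38 to 0.10), and Gpr37, an orphan receptor of maturing cells, had -0.27 (-0.64 to 0.11). Gpr37 passed the test without CAST_142 and WSB_100 (-0.44). For these 6 genes the ranges of the strains overlapped.

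Among myelinating genes Cldn11 showed the largest difference of the 34 members. Cldn11 encodes the claudin that forms the tight junctions of the myelin sheath and lies on chr3:31149920-31164324. It had 65.9, 79.7 and 99.8 CPM in CAST animals, against 68.1, 130 and 165 CPM in WSB animals. WSB_100 and WSB_169 lay among the CAST animals and the other 4 WSB animals lay above all of them. The log2 fold change was -0.60 (SE 0.18, edgeR adjusted p = 0.019), and the call was lost in 1 of 27 alternatives, the test against a fold of 1.2.

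Pllp, plasmolipin, a proteolipid of the sheath on chr8:94674894-94696278, was the other called gene. It had 4.65, 5.30 and 6.09 CPM in CAST animals, against 5.76, 6.74 and 8.75 CPM in WSB animals. The ranges overlapped because WSB_100 and WSB_147 lay below CAST_201 and CAST_202. This gave a log2 fold change of -0.38 (SE 0.12, edgeR adjusted p = 0.017), and 45.8% of the exon bases of Pllp lie outside Gm45767.

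Mbp, the protein that compacts the sheath, had the highest level of the members per length of exon, 201.9 CPM per kb over the 12 animals, followed by Cnp with 63.3 and Cldn11 with 54.2 CPM per kb. Per length of the whole gene body, introns included, Olig1 came first with 33.8 CPM per kb and Mbp second with 15.5 CPM per kb. Mbp had 1502, 1630 and 2053 CPM in CAST animals, against 1004, 1802 and 2435 CPM in WSB animals. The WSB range enclosed the CAST range, and the log2 fold change was -0.03 (95% interval -0.41 to 0.36).

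Mog and Mag, immunoglobulin-like proteins of the outer and the axonal face of the sheath, likewise had CAST ranges inside the WSB ranges. Mog had 42.5, 49.7 and 53.3 CPM in CAST animals, against 23.9, 45.8 and 57.0 CPM in WSB animals, with a log2 fold change of 0.20 (95% interval -0.18 to 0.57). Mag had 126, 137 and 170 CPM in CAST animals, against 71.4, 141 and 193 CPM in WSB animals, with a log2 fold change of 0.09 (95% interval -0.33 to 0.50). Cnp, a phosphodiesterase of the cytoplasmic channels of myelin, had a log2 fold change of -0.24 (-0.59 to 0.11), and Mobp, a basic protein of the sheath, -0.17 (-0.57 to 0.24). Without WSB_100 Cnp passed the test (-0.35), and without CAST_142, WSB_100 and WSB_120 together it did not (-0.32).

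Mal and Fa2h came close to the threshold. Mal, a raft proteolipid that sorts sheath components, had 92.6, 102 and 132 CPM in CAST animals, against 85.8, 152 and 191 CPM in WSB animals, with a log2 fold change of -0.41 (SE 0.17, edgeR adjusted p = 0.07). Fa2h, which hydroxylates the fatty acids of myelin galactolipids, had 24.4, 29.7 and 32.4 CPM in CAST animals, against 22.96, 41.5 and 50.5 CPM in WSB animals. Its log2 fold change was -0.39 (SE 0.17, edgeR adjusted p = 0.084). In both genes WSB_100 was the lowest of the 12 animals, and without it Mal (-0.53) and Fa2h (-0.50) passed the test. Without CAST_142, WSB_100 and WSB_120 together Fa2h (-0.45) passed and Mal did not.

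The remaining tested myelinating genes did not pass with all animals, and their ranges overlapped. Ugt8a, which makes galactosylceramide, had a log2 fold change of -0.00 (95% interval -0.39 to 0.38). The connexin genes went in opposite directions, with 0.31 (-0.16 to 0.79) for Gjb1 and -0.21 (-0.51 to 0.10) for Gjc3. Opalin, a membrane glycoprotein, had 0.30 (-0.12 to 0.72), Ermn, a cytoskeletal protein of the sheath, 0.14 (-0.28 to 0.55), and Nkx6-2, a homeodomain factor, 0.22 (-0.26 to 0.70). Aspa, which cleaves N-acetylaspartate, had -0.20 (-0.51 to 0.10), Apod, a lipocalin, -0.25 (-0.59 to 0.08), Qdpr, dihydropteridine reductase, 0.16 (-0.16 to 0.47), and Cntn2, an adhesion protein of the juxtaparanode, 0.00 (-0.31 to 0.32). Without WSB_100 Aspa (-0.31) and Gjc3 (-0.31) passed the test. Apod, for which CAST_142 had 116 CPM where the other CAST animals had 69.2 to 81.4 CPM, passed without CAST_142 (-0.39) and did not without CAST_142, WSB_100 and WSB_120 together (-0.24). Cntn2 passed as lower without CAST_142 and WSB_100 (-0.21).

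The WSB animals differed more among themselves than the CAST animals did in most members. The SD of log2 CPM was larger in WSB for 31 of the 34 members, against 44.5% of all genes tested. Without CAST_142, WSB_100 and WSB_120 it was larger in WSB for 30 of the 34 members, against 54.6% of all genes tested, and without WSB_100 and WSB_120 alone for 25, against 35.4%. The highest animal exceeded the lowest by a median of 1.43 times in CAST and 2.29 times in WSB over the 19 tested myelinating genes, and by 1.27 times in CAST and 2.06 times in WSB over the 8 differentiating genes. Over the same 19 genes it was 1.29 times in the 5 CAST animals other than CAST_142 and 1.64 times in the 4 WSB animals other than WSB_100 and WSB_120. Ranges of fewer animals are narrower in any case. Over the 3 precursor genes the medians were 1.34 times in CAST and 1.28 times in WSB. Over the 4 regulators they were 1.21 times in CAST and 1.46 times in WSB. The differences in spread were not tested.

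**Figure D2:**
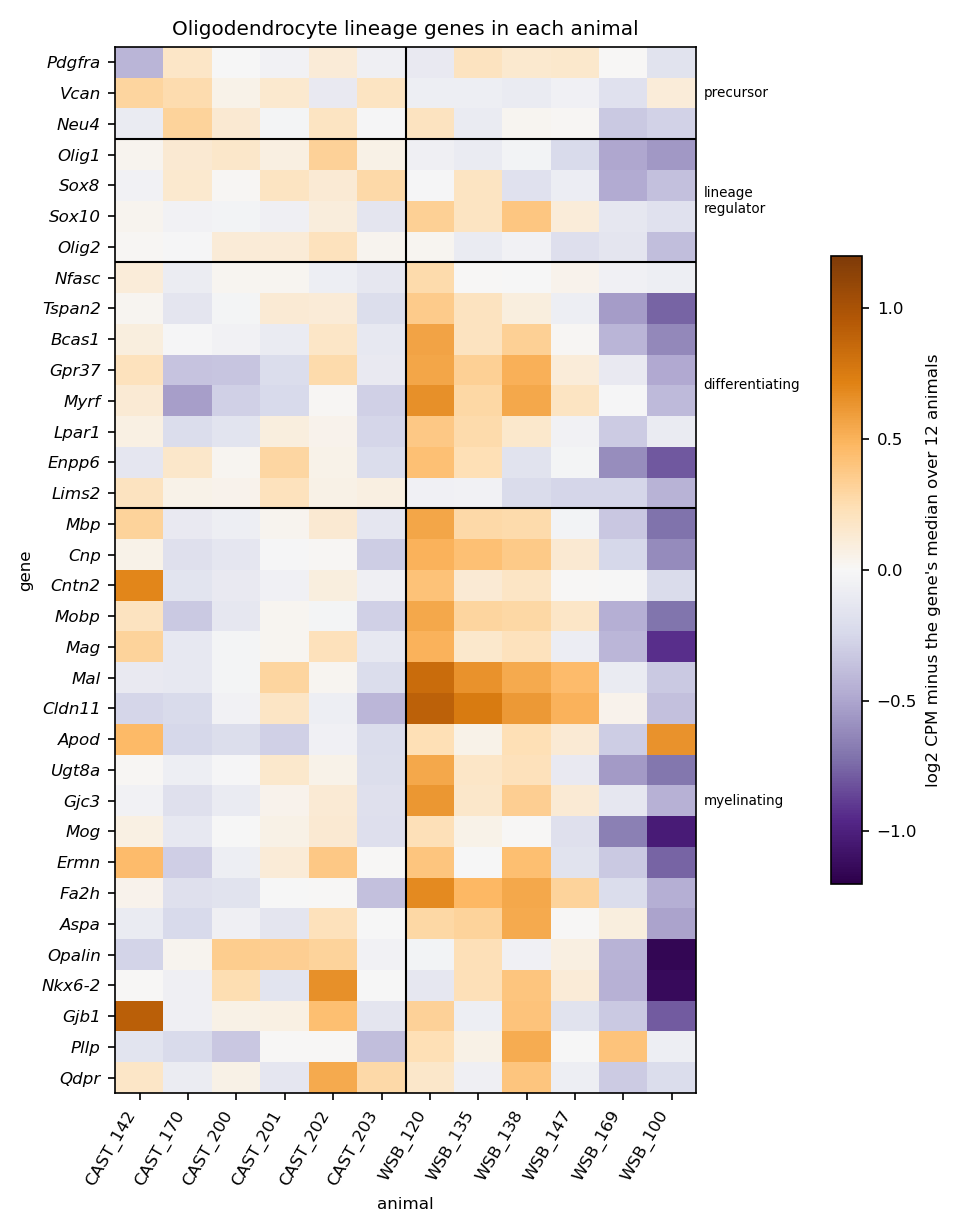
Log2 CPM of each tested member in each animal, minus the median of that gene over the 12 animals (colour), with members grouped by stage from top to bottom and CAST animals left of WSB animals. WSB_120 is high and WSB_100 low in most rows of the differentiating and myelinating stages, while the rows of precursor genes are paler in WSB animals.

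In WSB the same animals were at the ends of the range for most members. WSB_100 had the lowest WSB value in 28 of the 34 members and in 17 of the 19 myelinating members, against 20.6% of all genes tested. WSB_120 had the highest WSB value in 20 of the 34 members, against 18.5% of all genes tested. In CAST, CAST_203 had the lowest value in 17 of the 34 members, against 10.8% of all genes tested. CAST_142 had the highest CAST value in 12 of the 34 members, near its share of 32.8% of all genes tested. CAST_202 had it in 11, against 18.7%. Apod went the other way, with its highest WSB value, 131 CPM, in WSB_100. The summed CPM of the 20 myelinating genes, of which Mbp makes up most, was 1963 in WSB_100, 2419 in WSB_169, 3045 in WSB_147, 3619 in WSB_135, 3623 in WSB_138 and 4314 in WSB_120. In CAST it was 2638 in CAST_203, 2686 in CAST_170, 2807 in CAST_200, 3028 in CAST_201, 3190 in CAST_202 and 3578 in CAST_142. Of the animals at the ends of these sums, WSB_100, WSB_120 and CAST_142 are those that stood apart by the region genes given above, while CAST_203 is not, and the part of the region sampled in these levels was not tested.

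**Figure D3:**
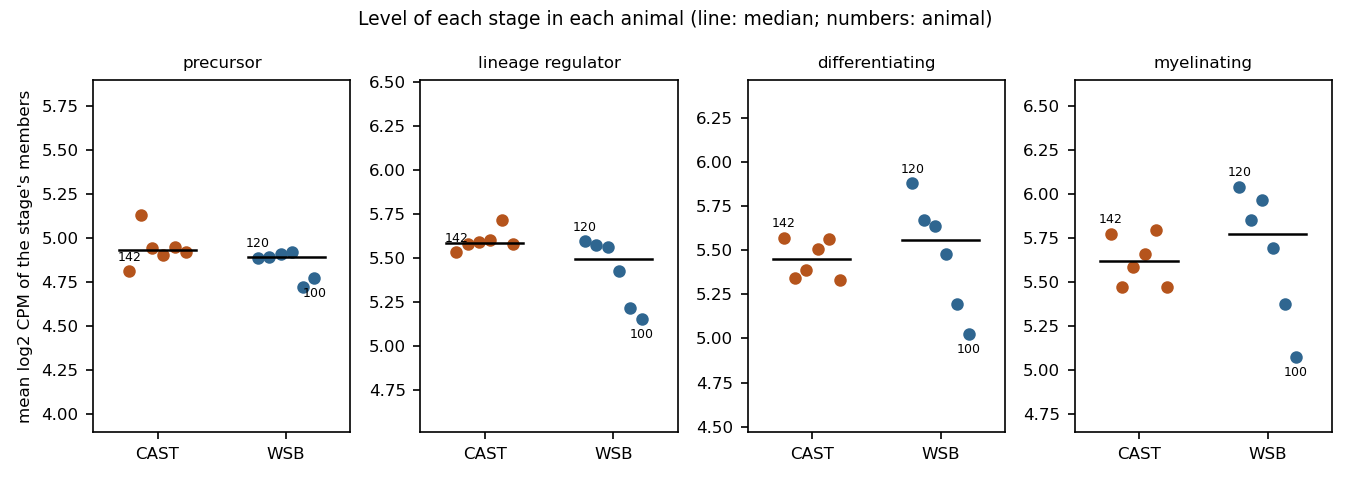
Mean log2 CPM of the tested members of each stage in each animal (points), with the median of each strain as a line; each panel spans 2 log2 units around its own mean, and 3 animals are numbered. WSB animals run from 5.07 to 6.04 in the myelinating panel and from 4.72 to 4.92 in the precursor panel, while CAST animals run from 5.47 to 5.79 and from 4.81 to 5.13.

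The number of members called changed when single animals were left out. Without CAST_142 and WSB_100, 11 of the 34 members were lower in CAST, 8 of them myelinating, against 3 lower with all animals. Without WSB_100 alone 8 members were lower, and without WSB_169 alone 5. When WSB_120 was left out beside CAST_142 and WSB_100, 4 members were lower in CAST, close to the 3 with all animals. With all animals 21.2% of all genes tested were lower in CAST. Shares of all genes in the fits without animals are not given here, so these counts only describe how calls moved.

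Most sheath genes were high in the same animals and low in the same animals, so the strains were also compared at a matched level of a myelin transcript. The genes used were Mbp and Cnp, the members with the highest levels per kb of exon, in fits added after the data were seen. With the log2 CPM of Cnp as a covariate beside strain, 14 of the other 33 members were higher and 4 lower in CAST, against 42.9% of all genes tested called in the same fit. With Mbp as the covariate in place of Cnp, 7 of the other 33 members were higher and 9 lower, against 43.9% of all genes tested. How many members lie on each side thus depended on the gene chosen to match the animals.

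Of the 32 members other than Mbp and Cnp, 10 were called in the same direction with either covariate, against 40.6% of all genes tested, and none was called in opposite directions. Olig1, Olig2, Sox8, Lims2, Mog and Mag were higher in CAST under both, and Myrf, Cldn11, Fa2h and Pllp were lower under both. For Mog the log2 fold change was 0.46 (SE 0.04) at matched Cnp and 0.23 (SE 0.06) at matched Mbp. For Mag it was 0.37 (SE 0.06) at matched Cnp and 0.12 (SE 0.03) at matched Mbp. For Cldn11 it was -0.34 (SE 0.08) at matched Cnp and -0.56 (SE 0.10) at matched Mbp. Cnp itself was lower at matched Mbp (-0.21), and Mbp higher at matched Cnp (0.22).

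**Figure D4:**
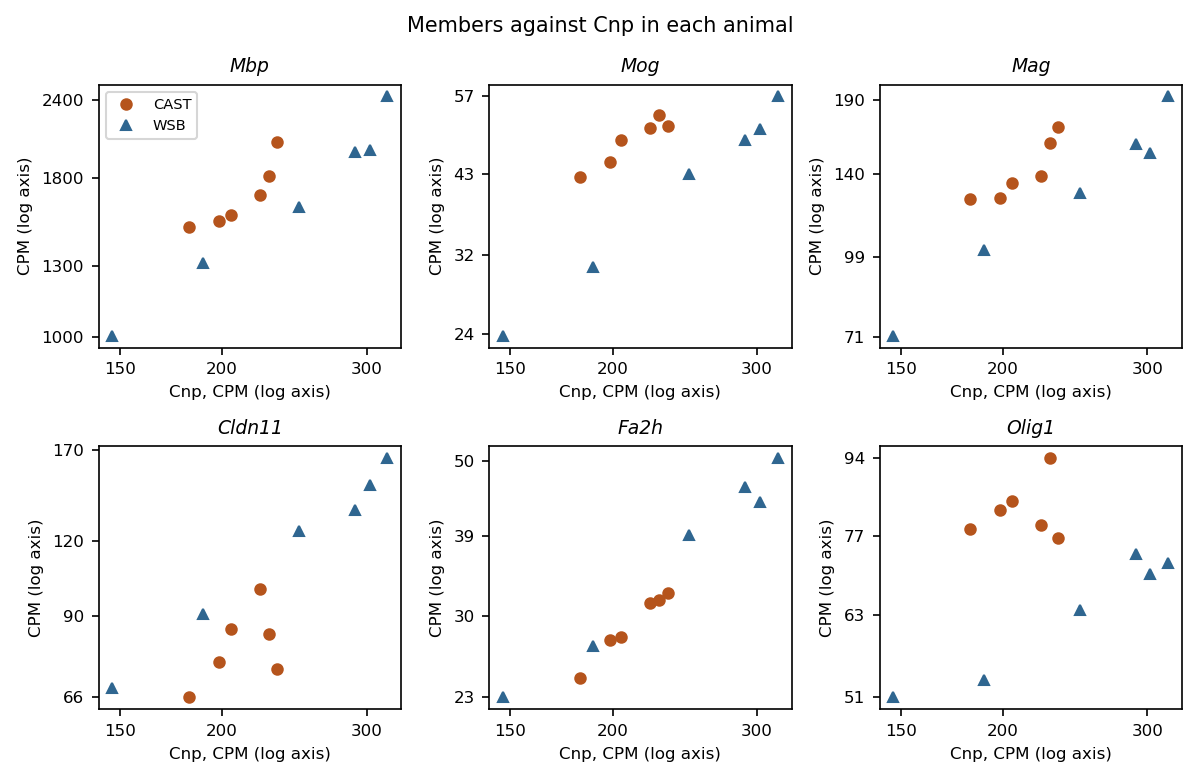
CPM of 6 members against CPM of Cnp in each animal, both on log axes, with CAST animals as circles and WSB animals as triangles. At a like level of Cnp the CAST points lie above the WSB points for Mbp, Mog, Mag and Olig1, and for Cldn11 they lie below. Of the WSB animals only WSB_169 lies inside the CAST range of Cnp.

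Ratios between members need no such fit. The level of Mog was 21.9%, 23.1% and 23.7% of that of Cnp as the lowest, median and highest value in CAST animals, against 16.2%, 16.7% and 17.9% in WSB animals, and the ranges did not overlap. The same held for Mag, Gjb1 and Tspan2, each higher relative to Cnp in every CAST animal than in any WSB animal. Cldn11 and Fa2h were lower relative to Cnp in every CAST animal than in any WSB animal. These are 6 of 33 members, against 11.6% of all genes tested with ranges apart in the same ratio and 27.1% in plain CPM. Genes that vary with Cnp lose shared spread in this ratio, while other genes take on the spread of Cnp. The 11.6% is thus no like measure for the members, and nothing is concluded from these counts. At matched Mbp, Gjb1 (0.30) and Tspan2 (0.08) were not called, and Cnp was itself lower. Cldn11 over Mog, a pair chosen after their values were seen and so given without a test, was 1.44, 1.63 and 1.96 in CAST animals, against 2.78, 2.90 and 2.96 in WSB animals. In this ratio WSB_100 and WSB_120, the ends of the WSB range in both genes, lay with the other WSB animals. These are ratios of CPM, not of molecules, since the genes differ in length. The part in them of alignment that differs between the strains was not tested.

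Further genes of the lineage were read from lists that hold no member, and their counts are read against the 42.7% of all genes tested that were called. Of 14 other precursor genes tested, 2 were higher and 3 lower in CAST (35.7% called). Rlbp1, a retinaldehyde-binding protein, had 16.2, 25.1 and 27.4 CPM in CAST animals, against 12.05, 13.6 and 14.9 CPM in WSB animals (log2 fold change 0.85, SE 0.11, edgeR adjusted p = 2.9e-05). Susd5 was higher as well, with a log2 fold change of 0.79 (SE 0.15), and Emid1 was lower, with -0.47 (SE 0.14). Ptprz1, a receptor phosphatase and the most abundant of the list, was lower, with -0.20 (SE 0.07). Of 16 other differentiating genes, 1 was higher and 2 lower (18.8%). Cemip2 had a log2 fold change of 0.30, Arpc1b, a subunit of an actin-nucleating complex, had -0.31, and Bmp4, a secreted inhibitor of differentiation, had -0.36.

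Of 35 other myelinating genes tested, 8 were higher and 6 lower in CAST, or 40.0%, near the share of all genes. Cryab, a small heat-shock protein of mature oligodendrocytes, had 47.2, 52.7 and 59.98 CPM in CAST animals, against 9.06, 11.9 and 19.2 CPM in WSB animals (log2 fold change 1.97, SE 0.16, edgeR adjusted p = 3.6e-07). Ninj2, an adhesion protein, had 0.383, 0.565 and 0.760 CPM in CAST animals, against 1.70, 3.08 and 4.05 CPM in WSB animals (log2 fold change -2.42, SE 0.23, edgeR adjusted p = 1.8e-06). Gsn, gelsolin, which severs actin filaments, was higher by 0.61 (SE 0.08). In these 3 genes the ranges of the strains did not overlap, and the differences of Cryab and Ninj2 were larger than that of any of the 34 members.

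Lipid enzymes and junction genes showed changes in both directions. Of 26 enzymes of sphingolipids and fatty acids, 3 were higher and 3 lower in CAST (23.1% called), with Elovl1, which elongates very long fatty acids, higher by a log2 fold change of 0.72 (SE 0.08). Kdsr, an early enzyme of sphingolipid synthesis, was lower with -0.49 (SE 0.04), and Smpd1, acid sphingomyelinase, with -0.32 (SE 0.04). Of 21 genes of the contact between axon and glia, 4 were higher and 2 lower (28.6%), among them Nrcam, a nodal adhesion protein, with -0.36 (SE 0.07), Adam22 with 0.25 (SE 0.06) and Cntn1, a paranodal partner of glial neurofascin, with 0.14 (SE 0.04).

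Of 25 other transcriptional regulators of the lineage, 3 were higher and 2 lower in CAST (5 of 25 called). Zfp488, a zinc-finger protein of oligodendrocytes, had 10.02, 11.1 and 14.0 CPM in CAST animals, against 3.28, 4.35 and 5.40 CPM in WSB animals (log2 fold change 1.37, SE 0.12, edgeR adjusted p = 7.4e-07). Hdac1, a histone deacetylase, was higher by 0.68 (SE 0.10). Of 35 signals and receptors, 6 were higher and 2 lower (22.9%), with Fgfr3 at 0.42 (SE 0.05), Gpr37l1 at 0.61 (SE 0.11) and Fgfr2 at 1.63 (SE 0.20). Fgfr2 shares its annotated span with 69 other genes, and 41.8% of that span is its own.

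Markers of other cells were read beside these results, again with 42.7% of all genes tested called. Summed levels of 11 astrocyte markers were 6014 to 6588 CPM in CAST animals and 5215 to 6141 CPM in WSB animals, and 3 of the 11 were higher and 1 lower in CAST. Summed levels of 10 mural cell markers were 159 to 187 CPM in CAST animals and 239 to 268 CPM in WSB animals, with 4 of 9 tested lower. Microglia markers summed to 157 to 266 CPM in CAST animals and 247 to 271 CPM in WSB animals, with 1 of 10 higher and 5 lower. The 8 neuron markers with reads summed to 6880 to 7624 CPM in CAST animals and 7433 to 8433 CPM in WSB animals. Endothelial markers summed to 230 to 265 CPM in CAST animals and 230 to 265 CPM in WSB animals, with 3 of 10 higher and 4 lower. Their log2 fold changes ran from -0.45 to 9.53, so like sums do not mean like levels of each marker. Gfap, P2ry12, Itgam, Nefl and Tubb3 of these lists were listed at 0. The part of these cells in the values of Olig1, Olig2 and Vcan was not tested.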

How the data were processed

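Brain RNA of 6 CAST and 6 WSB animals was sequenced on lanes 5 and 6. The 24 deposited files hold raw read counts by gene, as whole numbers. Per the submitters' processing notes, HTSeq, TopHat2 2.1.1, cutadapt and DESeq2 were used. Build, annotation and strandedness: not given in the sources used here.

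Lane counts were summed per animal, as repeat runs of one library. Counters that name no gene were kept out; per animal, 4.04% to 4.95% of counted alignments lay outside features and 11.1% to 16.5% in several. Symbols, positions and lengths come from GENCODE M21 (GRCm38), which holds 53360 of the 53465 identifiers, and the build of the counts may be another.

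All genes were fitted together with edgeR 4.0.16 in R 4.3.3 (quasi-likelihood test, robust dispersion, TMM scaling); the default filter on low counts kept 18425 genes, and p-values were adjusted over all of them by the Benjamini-Hochberg method. Fold changes are CAST over WSB. The fit was tested on simulated data. Alternatives were RLE, upper-quartile and library-size scaling, DESeq2 1.42.0, limma-voom 3.58.1, other filters, each lane alone, no robust dispersion, a test against a fold of 1.2 and leaving out animals. Fits with Cnp or Mbp as a covariate, and fits and spreads without CAST_142, WSB_100 and WSB_120 together (spreads also without the last 2), were added after seeing the data.

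The members, stages and other lists were chosen with earlier results of these data known. All members could be named; of each other lineage list, the 3 called genes of smallest adjusted p and the most abundant gene; of each marker list, the most abundant gene and genes that set an animal apart. The named astrocyte, neuron and microglia genes listed at 0, with Gpr17, Dnajc7, Gm20425, Gm42413 and Gm45767, fall outside this rule. A few listed genes are not reported here by name.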

Additional observations from a re-analysis of the deposited data

Results flagged for a closer look

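3 of 76 groups of 6 animals held a value far from the rest by Dixon's criterion, which chance meets in about 1 of 20 groups. Cntn2, an adhesion protein of the juxtaparanode also made by some neurons, had 308 CPM in CAST_142, where the other CAST animals had 170 to 201.6 CPM. Apod had 116 CPM in the same animal, where the other CAST animals had 69.2 to 81.4 CPM. CAST_142 is the animal with 344 CPM of the cerebellar gene Cbln3, and the part of the region sampled was not tested. Nfasc, which neurons also express, had 590 CPM in WSB_120, where the other WSB animals had 465.8 to 504 CPM.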

How the results depend on the processing

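The 7 called members had the same direction under all 27 alternatives. Differentiating members called (2) became 1 under library size alone, limma-voom, no filter, at least 10 reads in every animal, lane 6 alone and a stricter choice of stage genes, 4 with Cnp as a covariate and 1 to 2 when 1 animal was left out. Regulators called (2) became 1 on lane 6 alone and 4 with Mbp as a covariate. Myelinating members called (2) became 1 with the stricter choice, 8 without CAST_142 and WSB_100, 11 with Cnp, 8 with Mbp, and 2 to 7 when 1 animal was left out. Precursor members called (1) became 0 with Cnp and ran from 0 to 1 when 1 animal was left out. Members higher in CAST (4) became 14 with Cnp and 7 with Mbp, and members lower (3) became 11 without CAST_142 and WSB_100, 9 with Mbp and 2 to 8 when 1 animal was left out. Against a fold of 1.2, 0 members of any stage and direction were called by edgeR's glmTreat. The same test called 4326 of the 18425 genes tested, where the main test called 7866. Of the other lineage lists it called 19 genes, where the main test called 47. Among the members, 2 had an unadjusted p under 0.05 there. DESeq2 without that threshold called 8 members and limma-voom 7. Shares of all genes called by DESeq2 and limma-voom are not given here.

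The fold changes that reversed all belong to members not called with all animals. Under limma-voom Mbp was 0.024, Ugt8a 0.059 and Cntn2 -0.015. Ugt8a was 0.0041 on lane 6 alone and 0.020 without CAST_142, WSB_100 and WSB_120, where Cntn2 was -0.14. Without CAST_142 and WSB_100, Tspan2 was -0.062, Mag -0.10, Ermn -0.057 and Cntn2 -0.21, the last of these called. With Cnp, Mbp (0.22) and Ugt8a (0.25) were called, and Bcas1 (0.17) and Mobp (0.10) were not. With Mbp, Ugt8a was 0.038 and Cntn2 -0.016. When 1 animal was left out, Mbp ran from -0.15 to 0.10, Ugt8a from -0.11 to 0.14, Cntn2 from -0.15 to 0.076, Bcas1 from -0.18 to 0.055, Tspan2 from -0.056 to 0.16 and Mag from -0.048 to 0.22. The causes were not tested.

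No paired analysis was possible because the strains share no animal number. With 6 animals a strain, WSB spread limits what can be called in myelin genes, intervals cover the spread between these animals, and Trf could not be tested.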
